A study of Mus musculus with 6 samples.

Results

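A set of 10 genes of epithelial antimicrobial defence were examined in mouse jejunal epithelium, among 19933 genes read by the arrays. They are Reg3a, Reg3b, Reg3g, Reg1 and Reg4 of the regenerating islet-derived family, Retnlb, Lcn2, Lyz1, Mmp7 and Pigr. They were taken by gene symbol, and each of the 10 was read by 1 probe set that names no other gene. No probe set naming several genes named any of them. The samples were epithelial cells isolated from the jejunum, the middle segment of the small intestine, each profiled on 1 Affymetrix Gene 1.0 ST array. The 3 control mice carried R26-M2rtTA, a doxycycline-dependent transactivator placed at the Rosa26 locus. The 3 transgenic mice carried TRE-MSI2::R26-M2rtTA, which by its name adds a doxycycline-responsive transgene for the RNA-binding protein MSI2. Both groups received doxycycline in their drinking water for 24 hours, so the transactivator and the antibiotic are common to both. Rosa26 is active in most tissues, and the labels name no promoter that would confine the transgene to the epithelium. Strain, age and sex are not given in the labels.

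The small intestinal epithelium limits contact with bacteria through secreted proteins. Paneth cells at the crypt base release lysozyme and alpha-defensins, and the metalloproteinase matrilysin, encoded by Mmp7, activates the defensin precursors in the mouse. The C-type lectins of the Reg3 group are made by Paneth cells and enterocytes, and several of them bind bacterial surfaces. Goblet cells secrete RELM-beta, encoded by Retnlb, lipocalin 2 binds bacterial iron-carrying siderophores, and the polymeric immunoglobulin receptor carries dimeric IgA across the epithelium. Interleukin 22 acting through STAT3, and interleukin 1, interleukin 17 and Toll-like receptors acting through NF-kappaB and C/EBP factors, are known inducers of several of these genes.

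The labels were first checked on the Musashi genes. Msi2 did not separate the groups (log2 difference 1.03, adjusted p = 0.257 in limma), since the array labelled control replicate 1 read 11.30, within the range of those labelled transgenic. Without that array Msi2 was higher by 1.66 (adjusted p = 0.00958 in limma), so the call depends on this array. Msi1 was higher in all 3 arrays labelled transgenic (log2 difference 5.66, adjusted p = 0.000818 in limma), a 50.7-fold difference. The larger rise was thus in Msi1, whereas the labels name MSI2 for the transgene. Why the 2 differ was not tested, and the changes below cannot be credited to MSI2 from these values. All directions below are therefore between arrays labelled transgenic and arrays labelled control. Control replicate 1 also correlated less with the other controls (Pearson's r of 0.981 and 0.982 over all probe sets) than they did with each other (0.996). Array medians lay between 6.42 and 6.46, and probe sets for Xist and Y-linked genes in animals that lack them read between 4.07 and 5.06, which is called the dim range here. All 10 enterocyte markers and all 7 measured Paneth cell markers were above that range on at least 1 array. That bar is low and cannot tell tissues apart, since only 1 of 8 measured exocrine pancreas markers stayed in the range on all arrays. All values are log2 expression, and all differences are transgenic minus control on that scale.

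Of the 10 genes, Lcn2 and Reg3a rose, Pigr fell, and 7 did not pass the test (limma over all genes, adjusted p under 0.05). Over all genes 8.97% were called higher, 9.65% lower and 18.6% in either direction. The median difference of the 10 was -0.08, against 0.02 over all genes. The groups did not overlap for 3 of the 10, where 37% of all genes had groups that did not overlap. In the fit blocked on replicate number, 2 of the 10 rose and 1 fell (12.7% and 13.1% of all genes, 25.8% together), and with sex as a block again 2 and 1 (5.36% and 5.47%, 10.8% together). Without control replicate 1 it was 2 and 2 (13.4% and 14.4%, 27.8% together), and with array weights 2 and 2 (18.2% and 17.3%, 35.5% together). In bulk samples, fewer cells of a type and less RNA per cell cannot be told apart.

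**Figure D1:**
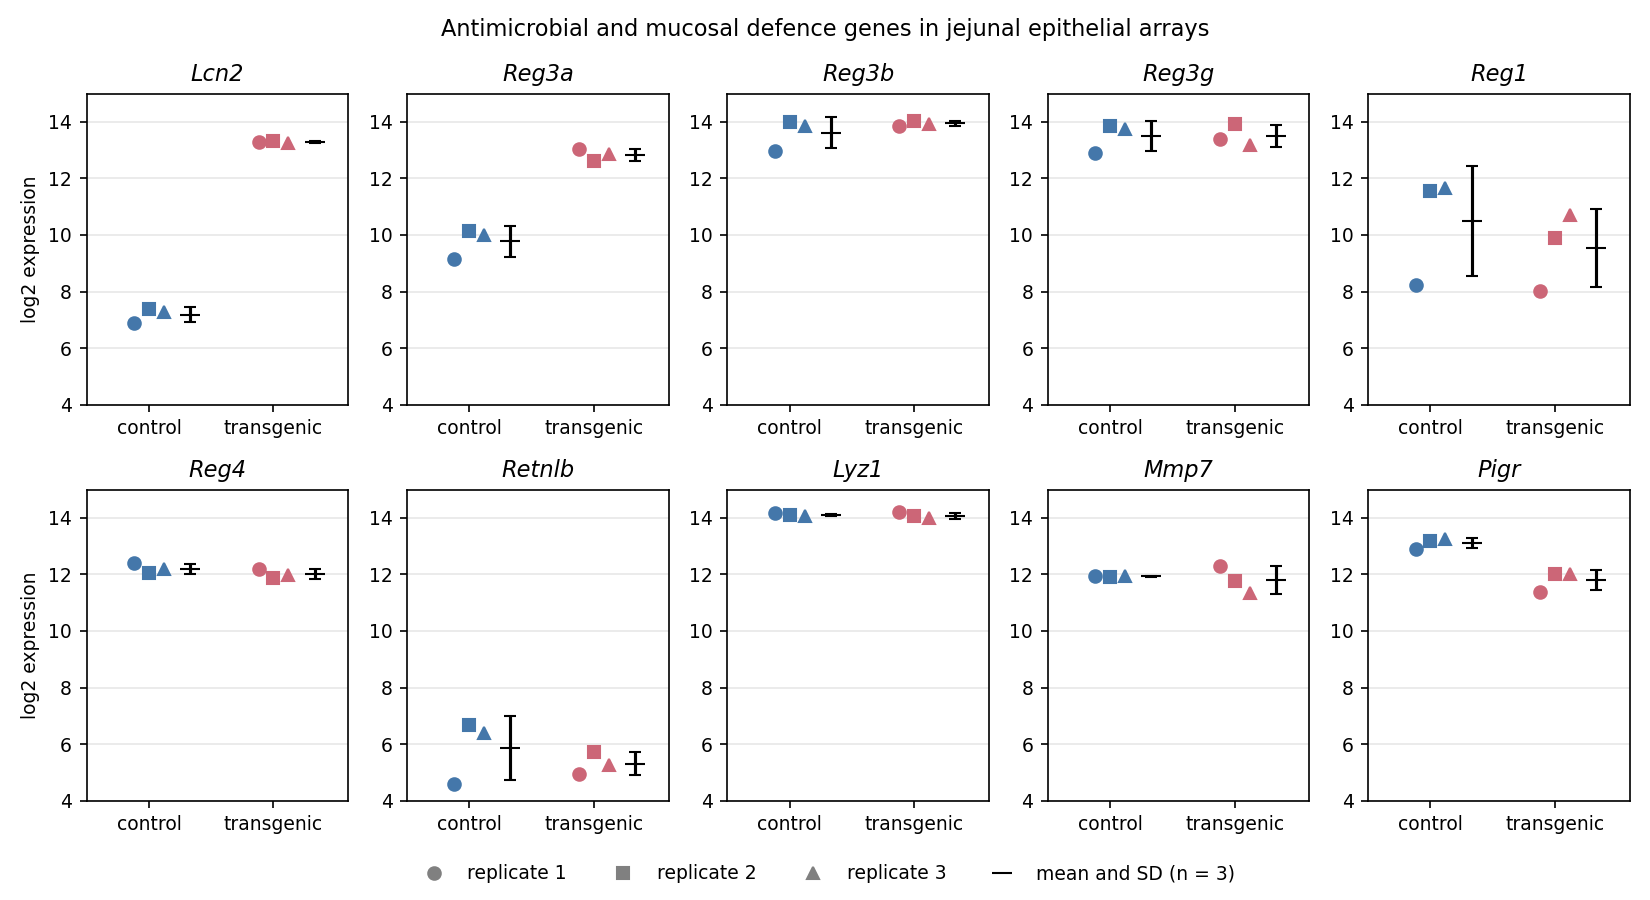
Log2 expression of the 10 genes (vertical axis) on each array, with control arrays in blue and transgenic arrays in red, symbols for the replicate number, and black bars for the mean and SD of 3 arrays. The transgenic arrays lie far above the controls for Lcn2 and Reg3a and below them for Pigr, while control replicate 1 lies under the other controls for Reg3a, Reg3b, Reg3g, Reg1 and Retnlb.

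Start-site sequences are shown for Lcn2, Reg3a and Pigr, which changed, for Reg3d, a Reg gene outside the 10 that also rose, and for Reg3b and Reg3g, near neighbours that did not pass. RefSeq (GRCm38.p6) gave a window of 250 bases before to 50 bases after the start for 9 of the 10 genes. Each runs 5′ to 3′ on the gene's strand, and capitals mark matches to the motifs searched. The windows are chr2:32387690-32387989 on the minus strand for Lcn2, chr6:78380459-78380758 on the plus strand for Reg3a, chr6:78378816-78379115 on the minus strand for Reg3d, chr6:78370635-78370934 on the plus strand for Reg3b, chr6:78468825-78469124 on the minus strand for Reg3g, and chr1:130826434-130826733 on the plus strand for Pigr.
Lcn2: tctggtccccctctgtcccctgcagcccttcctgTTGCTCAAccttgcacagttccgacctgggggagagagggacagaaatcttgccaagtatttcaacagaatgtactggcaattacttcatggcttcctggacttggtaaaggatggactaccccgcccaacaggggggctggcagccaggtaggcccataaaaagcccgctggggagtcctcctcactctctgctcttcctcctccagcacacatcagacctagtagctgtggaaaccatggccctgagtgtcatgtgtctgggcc
Reg3a: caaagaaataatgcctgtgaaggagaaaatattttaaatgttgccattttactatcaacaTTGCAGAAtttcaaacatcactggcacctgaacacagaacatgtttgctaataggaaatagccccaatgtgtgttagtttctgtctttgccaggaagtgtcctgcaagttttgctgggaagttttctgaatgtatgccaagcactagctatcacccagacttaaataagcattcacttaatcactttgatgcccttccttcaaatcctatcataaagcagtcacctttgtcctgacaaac
Reg3d: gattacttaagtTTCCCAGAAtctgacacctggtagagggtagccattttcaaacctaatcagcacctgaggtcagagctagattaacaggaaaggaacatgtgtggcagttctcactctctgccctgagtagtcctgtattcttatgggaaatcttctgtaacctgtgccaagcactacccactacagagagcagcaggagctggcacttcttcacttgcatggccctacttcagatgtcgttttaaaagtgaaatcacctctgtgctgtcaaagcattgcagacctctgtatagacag
Reg3b: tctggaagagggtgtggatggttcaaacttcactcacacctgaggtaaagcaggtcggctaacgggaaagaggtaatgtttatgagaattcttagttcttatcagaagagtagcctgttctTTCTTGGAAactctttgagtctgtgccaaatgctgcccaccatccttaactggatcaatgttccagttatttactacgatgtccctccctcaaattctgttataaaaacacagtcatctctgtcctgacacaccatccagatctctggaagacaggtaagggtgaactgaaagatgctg
Reg3g: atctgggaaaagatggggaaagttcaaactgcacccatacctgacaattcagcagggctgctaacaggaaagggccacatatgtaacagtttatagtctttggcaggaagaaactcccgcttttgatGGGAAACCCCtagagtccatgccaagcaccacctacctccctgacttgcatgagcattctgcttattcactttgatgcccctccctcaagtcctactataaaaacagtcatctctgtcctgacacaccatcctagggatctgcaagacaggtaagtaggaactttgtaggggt
Pigr: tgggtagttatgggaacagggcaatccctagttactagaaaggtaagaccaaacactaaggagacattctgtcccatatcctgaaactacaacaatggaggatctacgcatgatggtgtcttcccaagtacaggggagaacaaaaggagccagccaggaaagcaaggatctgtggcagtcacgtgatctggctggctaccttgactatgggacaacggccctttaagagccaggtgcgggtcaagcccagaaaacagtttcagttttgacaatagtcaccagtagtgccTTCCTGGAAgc
Both strands were searched for a STAT motif (TTCNNNGAA), a C/EBP motif (TTGCNNAA), an AP-1 motif (TGANTCA), an interferon regulatory factor motif and the NF-kappaB consensus. A C/EBP match was found for 4 of the 9 genes with a window, of which Lcn2 and Reg3a rose while Mmp7 and Lyz1 did not pass, and for 6 of their relatives, none of which passed (Reg2, Mmp3, Mmp10, Retnla, Retnlg and Fcamr). In the windows shown it reads TTGCTCAA at position -216 from the Lcn2 start and TTGCAGAA at position -190 from that of Reg3a. Reg3b and Reg3d each held 1 STAT match, and Pigr held 1 within its first 50 transcribed bases. In Reg3g the NF-kappaB match reads on both strands at the same 10 bases. Of 32851 RefSeq windows of this length, 10.8% held a C/EBP match, 8.3% a STAT match and 8.46% an NF-kappaB match. Reg3d, which rose, and Reg3b, which did not pass, shared the same kind of match. No exact interferon regulatory factor match was found in any of the 9 genes' windows, where 3.44% of all windows held one. Near matches were not counted, such as tttcagtttt in the Pigr window. These are letter matches in short windows and say nothing of binding.

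Lcn2, which encodes the siderophore-binding lipocalin 2, read 6.87, 7.39 and 7.26 on control replicates 1 to 3 and 13.28, 13.31 and 13.26 on transgenic replicates 1 to 3. The 2 groups were separated by 5.87 log2 units, and the 3 transgenic arrays spanned only 0.05 units. The means were 7.17 ± 0.27 and 13.28 ± 0.03 (SD, n = 3 each), a 69.0-fold difference (log2 6.11 ± 0.14, SE, adjusted p = 6.47e-05 in limma). A log2 difference of 6 or more was found for 0.0151% of all genes. The exact two-sided permutation test gave p = 0.1, the smallest that 3 against 3 arrays allow. The call held with every single array left out, with a highest adjusted p of 0.00253. The transgenic values came to within 1.16 log2 units of the highest value on their array, and whether the signal was compressed there was not tested.

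Reg3a, an intestinal C-type lectin, read 9.15, 10.15 and 10.01 on the control arrays and 13.03, 12.60 and 12.87 on the transgenic arrays. The lowest transgenic value exceeded the highest control value by 2.45. The 8.35-fold rise (log2 3.06 ± 0.28, SE, adjusted p = 0.00319 in limma) held with each array left out, with a highest adjusted p of 0.0229, and 0.236% of all genes had a log2 difference of 3 or more. Its cluster neighbour Reg3d, an additional family member on the array, read 5.53, 5.64 and 5.95 against 8.61, 7.81 and 8.60. Reg3d rose 6.19-fold (log2 2.63 ± 0.24, adjusted p = 0.00329 in limma), and its control values lay just above the dim range.

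Reg3b and Reg3g, the other lectins of the group, did not pass. Reg3b, which has been studied mainly as a defence against Gram-negative bacteria, read 12.98, 13.98 and 13.87 on the control arrays and 13.85, 14.04 and 13.94 on the transgenic arrays. Its difference was 0.33 with a 95% interval from -0.32 to 0.98 (adjusted p = 0.458 in limma), and without control replicate 1 it was 0.02. Reg3g, a lectin that binds peptidoglycan, read 12.90, 13.86 and 13.74 against 13.40, 13.92 and 13.17, a difference of -0.003 with an interval from -0.75 to 0.75 (adjusted p = 0.998). Both genes stood close to the top of the scale, within 0.37 and 0.49 log2 units of the highest value on an array at their closest, so a rise in either could be compressed, which was not tested.

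The response of Reg3a and Reg3d was set against that of Reg3b and Reg3g by taking the difference of the 2 log2 values within each array. Reg3a minus Reg3b was -3.82, -3.84 and -3.86 on the control arrays and -0.82, -1.44 and -1.07 on the transgenic arrays. Reg3a, Reg3b and Reg3g thus kept a nearly constant offset over the controls, although control replicate 1 lay 0.90 to 0.95 below the mean of the other 2 controls for each of them. The offset of Reg3a to Reg3b was 2.73 higher in the transgenic arrays and that to Reg3g 3.07 higher. The offset of Reg3d was 2.30 higher to Reg3b and 2.63 higher to Reg3g. None of these 4 pairs overlapped between the groups. The share over all genes, 37%, is for single genes, and none was computed for pairs. Compression of Reg3b and Reg3g near the top of the scale could add to these offsets, which was not tested. Each had an exact two-sided permutation p of 0.1, and 0.1 after Benjamini-Hochberg adjustment over the 4, the smallest that can be reached. The pairs set genes that were called against genes that were not, on the same arrays. Their separation therefore largely follows from those calls and is no further support for them. These lectins have similar sequences, and the probes they might share were not examined.

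**Figure D2:**
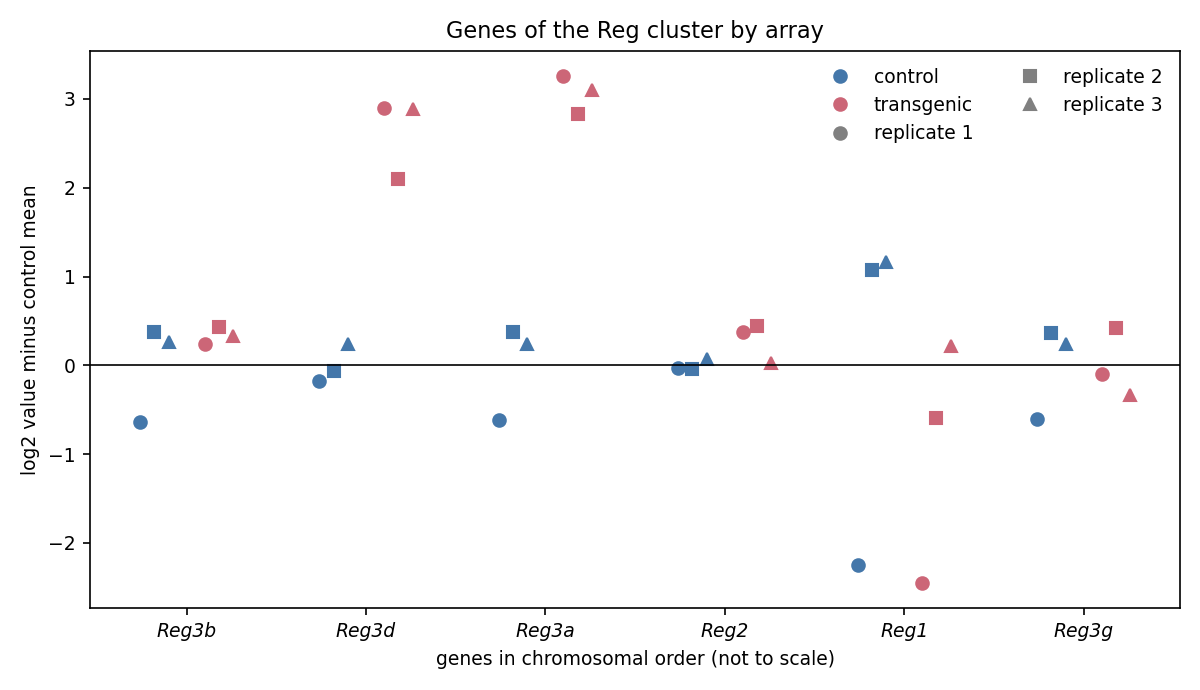
Log2 value minus the control mean (vertical axis) for the 6 genes of the Reg cluster, placed in chromosomal order, with control arrays in blue, transgenic arrays in red and symbols for the replicate number. The transgenic arrays are at least 2 log2 units above the control mean for Reg3d and Reg3a, which lie side by side, while Reg1 is lowest on replicate 1 of both groups.

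In the order of the RefSeq annotation the cluster runs Reg3b, Reg3d, Reg3a, Reg2, Reg1, a pseudogene and Reg3g. The 2 genes that rose are direct neighbours. Reg2 was in the dim range on all 6 arrays. Reg1, a secreted lectin-like protein also made in the pancreas, varied most within the groups, reading 8.24, 11.55 and 11.65 on the control arrays and 8.04, 9.89 and 10.70 on the transgenic arrays. Replicate 1 was the lowest array of both groups, and the groups overlapped. The difference was -0.94 with an interval from -3.62 to 1.75 (adjusted p = 0.625 in limma). It was -2.06 without control replicate 1 (adjusted p = 0.103). In the fit blocked on the replicate number it was again -0.94, with an adjusted p of 0.0738 in limma. None of 8 measured exocrine pancreas markers passed, the lowest p being that of Cel at -0.11 (adjusted p = 0.598), and their summed linear level was 388 to 399 on control and 377 to 436 on transgenic arrays. Reg4, a family member of enteroendocrine and goblet-like cells that lies outside the cluster, read 12.39, 12.04 and 12.18 against 12.20, 11.87 and 11.96. It did not pass, with a difference of -0.19 and an interval from -0.51 to 0.13 (adjusted p = 0.384).

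Lyz1 and Mmp7, the members tied above to Paneth cells alone, did not pass. Lyz1, the Paneth cell lysozyme, read 14.15, 14.10 and 14.07 on the control arrays and 14.20, 14.05 and 13.98 on the transgenic arrays. Its difference of -0.03 had an interval from -0.24 to 0.17 (adjusted p = 0.83 in limma), the narrowest of the 10 genes. The gene lay 0.24 to 0.47 log2 units below the highest value of each array, so a rise could be compressed there, which was not tested. Lyz2, the lysozyme of macrophages and monocytes, differed by -0.20 and did not pass (adjusted p = 0.642), and the 2 lysozymes are similar enough that their probes may not fully separate them.

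Mmp7, whose product processes alpha-defensins, read 11.93, 11.90 and 11.95 on the control arrays and 12.31, 11.76 and 11.33 on the transgenic arrays. The control arrays agreed within 0.05 log2 units while the transgenic arrays spread over 0.98 on both sides of them. The difference of -0.13 had an interval from -0.71 to 0.45 (adjusted p = 0.769 in limma). Of the related metalloproteinases, Mmp10 differed by 0.22 (adjusted p = 0.218, and 0.0301 without control replicate 1), and Mmp3, which was in the dim range on all 6 arrays, by 0.13 (adjusted p = 0.483). The alpha-defensin substrates were read by 8 probe sets, 6 of which name several defensin genes. None of the 8 passed over all probe sets, of which 14.3% did, and their differences ran from -0.41 to -0.18. Of 7 measured Paneth markers none passed either, with a median of -0.28. The one with the lowest p was the phospholipase gene Pla2g2a at 0.84 ± 0.33 (SE, adjusted p = 0.136).

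Retnlb, the goblet cell resistin-like molecule, was low on these arrays. It read 4.58, 6.68 and 6.38 on the control arrays and 4.93, 5.73 and 5.25 on the transgenic arrays, and replicate 1 of each group was in the dim range. The difference of -0.58 had an interval from -1.94 to 0.79 and did not pass (adjusted p = 0.549 in limma). Without control replicate 1 it was -1.22 and passed (adjusted p = 0.0183), in a fit where 14.4% of all genes were called lower, so this array decides the call. Its relatives Retnla and Retn differed by 0.02 and 0.07 and did not pass, and Retnlg differed by 0.56 (adjusted p = 0.188). Of 9 goblet cell markers 1 fell, the chemokine gene Ccl6 at -2.02 ± 0.22 (SE, adjusted p = 0.00477), and their median was -0.69. With the replicate block 3 of these markers fell, and 4 did without control replicate 1. Their summed linear level was 37359 to 62018 on control and 25178 to 45873 on transgenic arrays, and its part in the Retnlb values was not tested.

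Pigr, the receptor that carries IgA to the lumen, read 12.90, 13.17 and 13.23 on the control arrays and 11.39, 12.00 and 12.01 on the transgenic arrays. All transgenic values lay below all control values, by at least 0.89. The 2.46-fold fall corresponds to a difference of -1.30 ± 0.19 (SE, adjusted p = 0.0109 in limma), and 4.87% of all genes had a difference of -1 or lower. The call was lost without control replicate 2 (adjusted p = 0.0535) or control replicate 3 (adjusted p = 0.0546), with differences of -1.26 and -1.23. The exact two-sided permutation p was 0.1. Fcamr, a related receptor for IgA and IgM, differed by 0.30 and did not pass (adjusted p = 0.215).

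**Figure D3:**
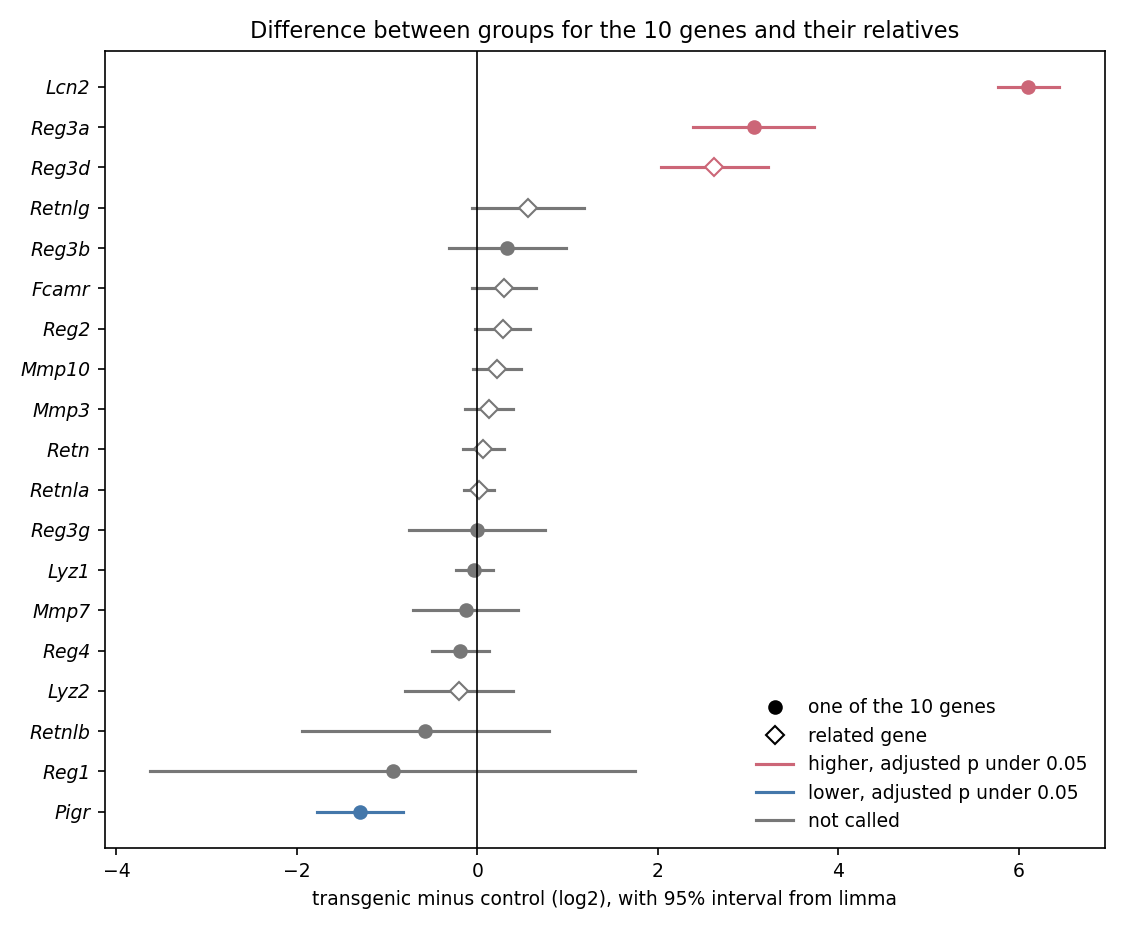
Differences between the groups on the log2 scale (horizontal axis) with 95% intervals from limma, filled circles for the 10 genes and open diamonds for related genes. Lcn2, Reg3a and Reg3d lie to the right of 0 with intervals that exclude it, Pigr lies to the left, and Reg1 has the widest interval.

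In the array pattern across all 6 samples, the genes most like Lcn2 were Capg, an actin filament capping protein gene, Ly6g, a surface protein of the Ly6 family, and Lgmn, the lysosomal protease legumain. Their Pearson correlations with Lcn2 were 0.9998, 0.9990 and 0.9989 over 6 arrays, and 50 of 18236 genes reached 0.99. Those 3 genes rose by 1.29, 8.06 and 2.45. The genes most like Pigr were Plaat3, a phospholipase and acyltransferase gene, Tma7 and Cmpk2, a mitochondrial nucleotide kinase gene, with correlations of 0.9991, 0.9987 and 0.9981 and differences of -1.24, -0.37 and -2.43. The calls of Plaat3 (adjusted p = 0.0509 and 0.0522), Tma7 (adjusted p = 0.112 and 0.112) and Cmpk2 (adjusted p = 0.0515 and 0.0532) were lost in limma without control replicate 2 or 3. That of Tma7 was also lost without transgenic replicate 1 or 3 (adjusted p = 0.0936 and 0.083). The arrays share their group structure, so these correlations mostly restate the distance between the groups.

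Lcn2 is also a granule protein of neutrophils, and markers of that cell were therefore read beside it. For every list in this report, the shares of all genes that rose and fell are 8.97% and 9.65% in the main fit. They are 12.7% and 13.1% with the replicate block, 5.36% and 5.47% with sex as a block, and 13.4% and 14.4% without control replicate 1. Of 13 measured neutrophil markers 4 rose and none fell, with a median of 0.31, and their summed linear level was 552 to 613 on control and 8155 to 9674 on transgenic arrays. Nearly all of that difference was Ly6g. The other 12 summed to 518 to 585 and 664 to 748. Besides Ly6g the risers were the calcium-binding protein gene S100a9 at 1.14 ± 0.16 (SE), the chemokine receptor gene Cxcr2 at 0.83 ± 0.15 and the lactoferrin gene Ltf at 0.38 ± 0.09. Of the other granule genes, Mpo and Elane differed by -0.05 and 0.10 (adjusted p = 0.852 and 0.512 in limma). Camp and Mmp8 differed by 0.31 and 0.59 and did not pass either (adjusted p = 0.0693 and 0.0841). Ngp was in the dim range on all arrays. Cxcr2 was in the dim range on 5 of 6 arrays. With sex as a block 2 of the 13 rose. With single arrays left out the calls of Cxcr2 (without control replicate 2 or 3 or transgenic replicate 3) and Ltf (without any array but control replicate 1) were lost, the highest adjusted p being 0.0734 for Cxcr2 and 0.122 for Ltf.

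Of 22 other antimicrobial genes 4 rose and none fell, with a median of 0.18 and 18 that did not pass. Beside S100a9 and Ltf the risers were the serum amyloid genes Saa1 at 3.69 ± 0.63 (SE, adjusted p = 0.0156) and Saa3 at 3.58 ± 0.83 (adjusted p = 0.0333). The Saa1 call was lost without control replicate 2 or 3 (adjusted p = 0.0679 and 0.0658). That of Saa3 was lost without control replicate 2 or 3 or transgenic replicate 3 (adjusted p = 0.107, 0.106 and 0.0834). When the fit was blocked on sex, 2 of the list rose, Saa3 and Ltf losing their calls (adjusted p = 0.0807 and 0.0781). Saa1 was in the dim range on all 3 control arrays. The epithelial oxidase gene Duox2 and its maturation factor Duoxa2 differed by -0.35 and 1.35 and did not pass (adjusted p = 0.732 and 0.174 in limma).

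Among 17 genes of interleukin 22, interleukin 6 and STAT3 signalling, 6 rose and 1 fell, with a median of 0.35. Over all genes 8.97% rose and 9.65% fell. The shared receptor subunit gene Il6st rose by 0.80 ± 0.10 (SE, adjusted p = 0.0062), the oncostatin M receptor gene Osmr by 1.11 ± 0.16 (adjusted p = 0.0101), the fucosyltransferase gene Fut2 by 3.28 ± 0.54 (adjusted p = 0.0138) and Stat3 itself by 0.63 ± 0.13 (adjusted p = 0.0223). Il22ra1, the epithelial subunit of the interleukin 22 receptor, differed by 0.36 and did not pass (adjusted p = 0.238). Osmr lost its call without control replicate 2 or 3 (adjusted p = 0.051 and 0.0518), and Fut2 without control replicate 3 or transgenic replicate 3 (adjusted p = 0.0563 and 0.0527). Stat3 lost it without control replicate 2 or 3 or transgenic replicate 1 or 3, at up to 0.0888. With sex as a block 3 of this list rose and 1 fell, Stat3 being lost (adjusted p = 0.058). In the fit blocked on replicate number 8 rose and 2 fell, and 7 rose and 2 fell when control replicate 1 was left out.

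Of 19 genes of NF-kappaB, interleukin 1, interleukin 17 and Toll-like receptor signalling, 7 rose and 2 fell, with a median of 0.35. The shares over all genes were 8.97% and 9.65%. The adaptor gene Traf6 rose by 1.41 ± 0.15 (SE, adjusted p = 0.005), the C/EBP factor gene Cebpd by 1.33 ± 0.16 (adjusted p = 0.00614) and the NF-kappaB subunit gene Rela by 0.80 ± 0.09 (adjusted p = 0.00557). The double-stranded RNA receptor gene Tlr3 fell, at -0.87 ± 0.08 (adjusted p = 0.00286). The interleukin 17 receptor subunit gene Il17rc was at -2.26 ± 0.33 (adjusted p = 0.0103) and lost its call without control replicate 2 or 3 or transgenic replicate 3 (adjusted p = 0.0517, 0.0522 and 0.0516). In the fit blocked on replicate number 8 of this list rose and 4 fell, and 7 rose and 4 fell when control replicate 1 was left out. With sex as a block 5 rose and 2 fell.

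Of 8 genes linked to interleukin 4, interleukin 13 and STAT6, which are known inducers of Retnlb, 2 rose and 1 fell, with a median of 0.02. Il4ra rose by 1.53 ± 0.20 (SE, adjusted p = 0.00739) and the alarmin gene Il33 by 2.50 ± 0.37 (adjusted p = 0.0105, and 0.0508 without control replicate 3). Stat6 was at -0.88 ± 0.16 (adjusted p = 0.018) and lost its call without control replicate 2 or 3 or transgenic replicate 3 (adjusted p = 0.0753, 0.0772 and 0.0737). In the fit blocked on replicate number 3 of this list rose and 1 fell. Of 11 partners of lipocalin and metalloproteinases, which include inhibitors and substrates, 1 rose, the E-cadherin gene Cdh1 at 0.32 ± 0.08 (adjusted p = 0.0432). The Cdh1 call was lost with the replicate block (adjusted p = 0.0718) and without any array but control replicate 1, at up to 0.145. Without control replicate 1, 3 of these partners rose, and with sex as a block none did, with Cdh1 at an adjusted p of 0.0659.

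Of 7 measured genes tied to IgA transport and its support, 1 rose and 2 fell, with a median of -0.19. With so few genes these counts cannot be told from the shares over all genes, 8.97% and 9.65%. Irf1, a known activator of the Pigr promoter, was at -1.65 ± 0.22 (SE, adjusted p = 0.00796) on the brighter of its 2 probe sets, and the chemokine gene Ccl25, which attracts gut-homing lymphocytes, at -2.60 ± 0.58 (adjusted p = 0.0307). The interferon gamma receptor gene Ifngr1 rose by 0.48 ± 0.11 (adjusted p = 0.0335, and 0.0543 with the replicate block). With 1 array left out the calls of Ccl25 (without any array but control replicate 1 or transgenic replicate 2) and Ifngr1 (without any but control replicate 1) were lost at up to 0.114 and 0.121. With sex as a block none of this list rose and 1 fell, and in the fit blocked on replicate number none rose and 2 fell. Jchain, which joins the IgA dimers that Pigr carries, differed by -0.19 and did not pass (adjusted p = 0.85 in limma). None of 6 measured B and plasma cell markers passed, the lowest p being that of Cd79b at 0.19 (adjusted p = 0.372 in limma), with summed linear levels of 363 to 527 on control and 385 to 570 on transgenic arrays.

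Markers of other cells were read beside these changes. All 9 T cell and intraepithelial lymphocyte markers fell, with a median of -1.85, and their summed linear level was 4657 to 7453 on control and 838 to 1996 on transgenic arrays. With sex as a block 7 of the 9 fell. The 4 with the lowest p were Itgae, Nkg7, Cd8a and Cd160, at -1.85, -2.53, -1.54 and -0.84. Without single arrays Cd8a (control replicate 2 or 3 or transgenic replicate 3) and Cd160 (control replicate 3 or transgenic replicate 1) lost their calls, with a highest adjusted p of 0.0604 for Cd8a and 0.0624 for Cd160 in limma. Of 10 enterocyte markers 1 fell, the brush border gene Vil1 at -0.80 ± 0.21 (SE, adjusted p = 0.0453), with a median of -0.73 and summed levels of 64626 to 115053 against 39952 to 86492. The Vil1 call was lost without any array but control replicate 1 or transgenic replicate 2, at up to 0.148, while 7 enterocyte markers fell with the replicate block and none with sex as a block. Of 10 monocyte and macrophage markers 2 rose, the mannose receptor gene Mrc1 at 1.03 ± 0.12 and Cd14 at 1.07 ± 0.20, and Adgre1 and Ccr2, defining markers, were in the dim range on all arrays. In the fit blocked on replicate number 3 of them rose. The summed level of that list was 3016 to 3965 against 2578 to 4173, and Cd14 lost its call without control replicate 2 or transgenic replicate 3 (adjusted p = 0.073 and 0.075). None of 6 stromal markers passed, the lowest p being that of Pdgfra at 0.32 (adjusted p = 0.0902 in limma). The part of these cells in the values of Lcn2, Reg3a and Pigr was not tested.

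**Figure D4:**
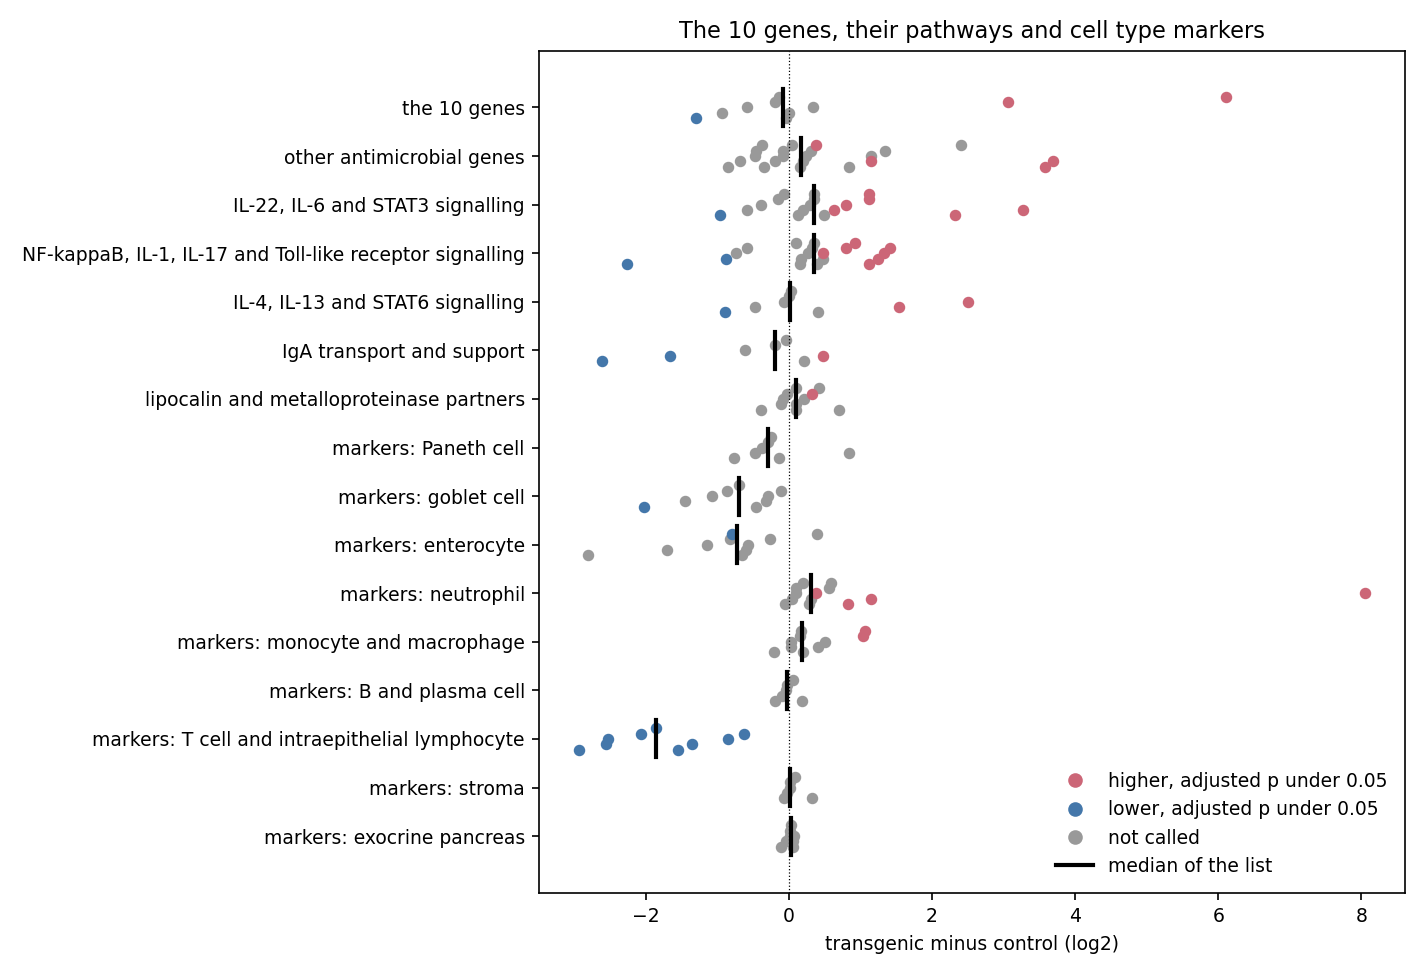
Differences between the groups on the log2 scale (horizontal axis) for each measured gene of the 10 and of the pathway and cell type lists, red where higher and blue where lower at an adjusted p under 0.05, with black bars for list medians. Lcn2 is the point at 6.11 in the top row, the neutrophil point at 8.06 is Ly6g, and all 9 lymphocyte markers lie to the left of 0.

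Control replicate 1 bears on the members that did not pass. It lay at least 0.5 log2 units below both other controls for 5 of the 10 genes, namely Reg3a, Reg3b, Reg3g, Reg1 and Retnlb, and for 7.9% of all genes. The distance to the mean of the other controls was -3.36 for Reg1 and -1.95 for Retnlb. For Reg4 and Lyz1 it was 0.28 and 0.07, above the others. Without this array Lcn2, Reg3a and Pigr kept their calls, with differences of 5.96, 2.75 and -1.40 (adjusted p = 3.32e-05, 0.00137 and 0.00789 in limma), and Retnlb was added as a second member that fell.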

How the data were processed

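The deposited table holds log2 expression of each probe set on each array, unpooled. The submitters' processing notes list Partek and RMA but neither their versions or settings nor a genome build. RMA corrects background and normalizes between arrays, so a shift common to all genes of an array would be removed.

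Of 28350 probe sets, 21780 name 1 gene, 1618 name several and 4952 are unnamed here. Symbols were updated by gene identifier with a RefSeq table (GRCm38.p6), which matched 21689. Each gene took its 1-gene probe set with the highest mean, giving 19933 genes. A limma 3.58.1 model (lmFit and eBayes, R 4.3.3) with no term besides group gave two-sided p-values, which were adjusted by Benjamini-Hochberg across the 19933 genes and called under 0.05. The fit was tested on simulated data. The 3 arrays a group limit the precision. The p-values set each difference against the spread between these mice, with variances moderated over all genes.

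The members and lists were chosen with earlier results of these data known. Named genes were the members and their relatives, Msi1 and Msi2, up to 4 genes with the lowest p among those called in each list (where none was called, the 1 with the lowest p), and the 3 genes most like Lcn2 and Pigr; other genes were named for their role with values seen. Summed levels are sums of unlogged values.

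Both groups number their replicates 1 to 3. Departures of the arrays from their group mean correlated by 0.52, 0.41 and 0.13 for the pairs numbered 1, 2 and 3. No label says what a number shares, so the main fit did not pair the samples. Pairing by number entered only as the replicate block, an alternative fit. Deviations cancel within a group, so the 3 values are not independent. Control replicate 3 correlated more with transgenic replicate 2 (0.32). The sex of the mice, read from Xist and Y-linked genes, was mixed in both groups. Alternatives were the replicate block, sex as a block, other probe set rules, filters, normalizations, variance models, thresholds, and leaving out each array. The list counts under a block, or leaving out control replicate 1, were chosen after seeing the data.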

Additional observations from a re-analysis of the deposited data

How the results depend on the processing

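Over the alternatives, 176 of 189 values of the 10 genes kept their direction and their side of the threshold, 3 were weaker, 2 stronger and 8 reversed. Many of these could not change direction. The probe set rules, filters, intensity trends, replicate block and thresholds leave the difference of a gene with 1 probe set as it was. With each array left out in turn, 2 genes rose in every case and 0 to 2 fell, and the differences ran from 5.96 to 6.22 for Lcn2, 2.75 to 3.25 for Reg3a, -1.40 to -1.09 for Pigr, -1.22 to -0.18 for Retnlb, -0.30 to 0.18 for Reg3g, -0.10 to 0.013 for Lyz1 and -0.39 to 0.11 for Mmp7. With array weights 2 genes fell, since Retnlb passed at -1.15 (adjusted p = 0.0492). At an adjusted p under 0.01, 2 rose and 0 fell, since Pigr, at -1.30, stood at 0.0109 in limma. After renewed quantile normalization Reg3g was at 0.060 and Lyz1 at 0.0079, both uncalled. The replicate block changed no call of the 10 genes, with adjusted p = 0.000574 for Lcn2, 0.00529 for Reg3a and 0.00432 for Pigr.

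Over all genes 1787 were called higher and 1923 lower. These counts were 1068 and 1091 with sex as a block, 3630 and 3442 with array weights, 395 and 406 at an adjusted p under 0.01, and 2729 higher at an adjusted p under 0.10. With 1 array left out they ran from 476 to 2663 and from 476 to 2879. Leaving out control replicate 1 gave the highest of these counts, 2663 and 2879, although it left fewer arrays. Except for the thresholds, the cause was not tested. Retnlb has no value in the fit without genes of a mean under 6. Signals close to either end of the scale, as for Retnlb, Lyz1, Reg3b and Reg3g, may limit what size of change could be seen.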
